A study of Mus musculus with 11 samples.

Results

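The non-collagen cartilage matrix genes were followed across 6 sorted populations of mouse bone cells. The set held 10 genes, Acan, Hapln1, Matn1, Matn3, Cnmd, Ucma, Comp, Chad, Cytl1 and Prg4, out of 18193 genes that had a probe set with a single gene symbol on the array. Each gene was chosen by its symbol and not by a cut on its values, though with earlier results of these data known. It was read from its brightest such probe set, by the mean of the 11 arrays. All 10 were measured, and no filter on signal was applied.

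The periosteal skeletal stem cells (P-SSCs, 2 arrays) were CD45-/CD31-/Ter119- cells, positive for CD105 and CD140a and for the Mx1 label and negative for osteocalcin, from the periosteum of Mx1-Cre; Rosa-Tomato; Osteocalcin-GFP mice. The marrow skeletal stem cells (BM-SSCs, 2 arrays) passed the same lineage and CD105/CD140a gates and were Mx1+Nes+ cells of Mx1-Cre; Rosa-Tomato; Nestin-GFP mice. The Nes+ BMSCs (1 array) were Nes+ marrow stromal cells of the same lineage and CD105/CD140a gates, with or without the Mx1 label. The other populations were CD51+ BMSCs (2 arrays), Osx+ osteolineage precursors marked by Osterix-driven GFP (2 arrays) and CD45+ hematopoietic cells of the marrow (2 arrays). The titles of the CD51+ and Osx+ arrays give the same CD45-/CD31-/Ter119- gate. For the CD51+ cells the study also describes selection for CD105 and CD140a, which their titles do not name. The mice were on a C57BL/6 background, and those carrying Mx1-Cre had been irradiated at 4 weeks of age, reconstituted with wild-type marrow and injected with pIpC 6 to 8 weeks later. Mx1-Cre is switched on by interferon and is not restricted to bone, and the host marrow of these mice was replaced. The mice of the P-SSCs and BM-SSCs therefore carried this treatment. The title of the Nes+ array names cells with or without the Mx1 label, and for cytometry the study took Nes+ BMSCs from Mx1-Cre mice. The Nes+ BMSCs of the array may thus have had the same treatment, which their label does not state. The labels do not give it for the CD51+, Osx+ and CD45+ cells. The cells came from 2 or 3 male and female mice, and it is not stated whether the arrays of a population came from separate mice, so p-values measure only the spread between these arrays, which may be technical. For the Nes+ BMSCs and the Osx+ cells the source label names periosteal tissue, although the title of the Nes+ array places these cells in the marrow.

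Cartilage matrix is a gel of aggrecan held in a net of type II, IX and XI collagen. Aggrecan binds hyaluronan through link protein, matrilins and the oligomeric protein COMP tie the collagen fibrils to their neighbours, and smaller proteins act on vessels, mineral and cells. Chondrocytes make most of these proteins, whereas COMP is also made by tendon cells, and lubricin (Prg4) is made by the cells of joint surfaces and synovium. Osterix (Sp7), the transcription factor behind the Osx+ sort, is needed to form osteoblasts and is also made by maturing growth plate chondrocytes.

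Expression is given as RMA log2 signal, so that 1 unit is a doubling, and is compared between populations for a gene but not between genes. The second array of each SSC population departed from the rest. The correlation between arrays over all probe sets was 0.456 in P-SSCs, 0.771 in BM-SSCs and 0.985 to 0.995 in the other pairs. The median of 39 ribosomal protein genes stood at 7.26 on P-SSC array 2, against 11.65 or more elsewhere. The 10 cartilage genes differed between the paired arrays by a median of 2.63 log2 units in P-SSCs and 1.66 in BM-SSCs, against 0.14 in each of the CD51+, Osx+ and CD45+ pairs. Results for the 10 genes are therefore given with all arrays and without these 2 departing arrays. In the second setting each SSC population is 1 array assumed to vary like the other populations. Counts for the other gene lists are from all arrays unless stated. The Nes+ BMSCs are 1 array in every fit, so their p-values rest on the same assumption throughout.

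Most of the cartilage matrix genes were highest in the Osx+ cells. For 8 of the 10 genes both Osx+ arrays lay above every other array, as they did for 8.8% of all genes. The exceptions were Cytl1, with its highest mean in CD51+ BMSCs, and Prg4, with a lower mean in Osx+ cells than in BM-SSCs, Nes+ BMSCs and CD51+ BMSCs. Against Osx+ cells, 4 of 10 genes were lower in P-SSCs by limma's test at a Benjamini-Hochberg adjusted p under 0.05, where 1.02% of all genes were lower. The same count was 4 in BM-SSCs (background 0.781%), 3 in Nes+ BMSCs (background 0.352%) and 4 in CD51+ BMSCs (background 0.984%), and no member was higher in any of these comparisons, where 0.055%, 0.044%, 0% and 2.21% of all genes were higher. The median difference of the 10 genes from Osx+ cells was -5.79 for P-SSCs, -4.82 for BM-SSCs, -4.44 for Nes+ BMSCs and -2.81 for CD51+ BMSCs, beside medians over all genes of 0.15, 0.04, 0.01 and -0.04.

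**Figure D1:**
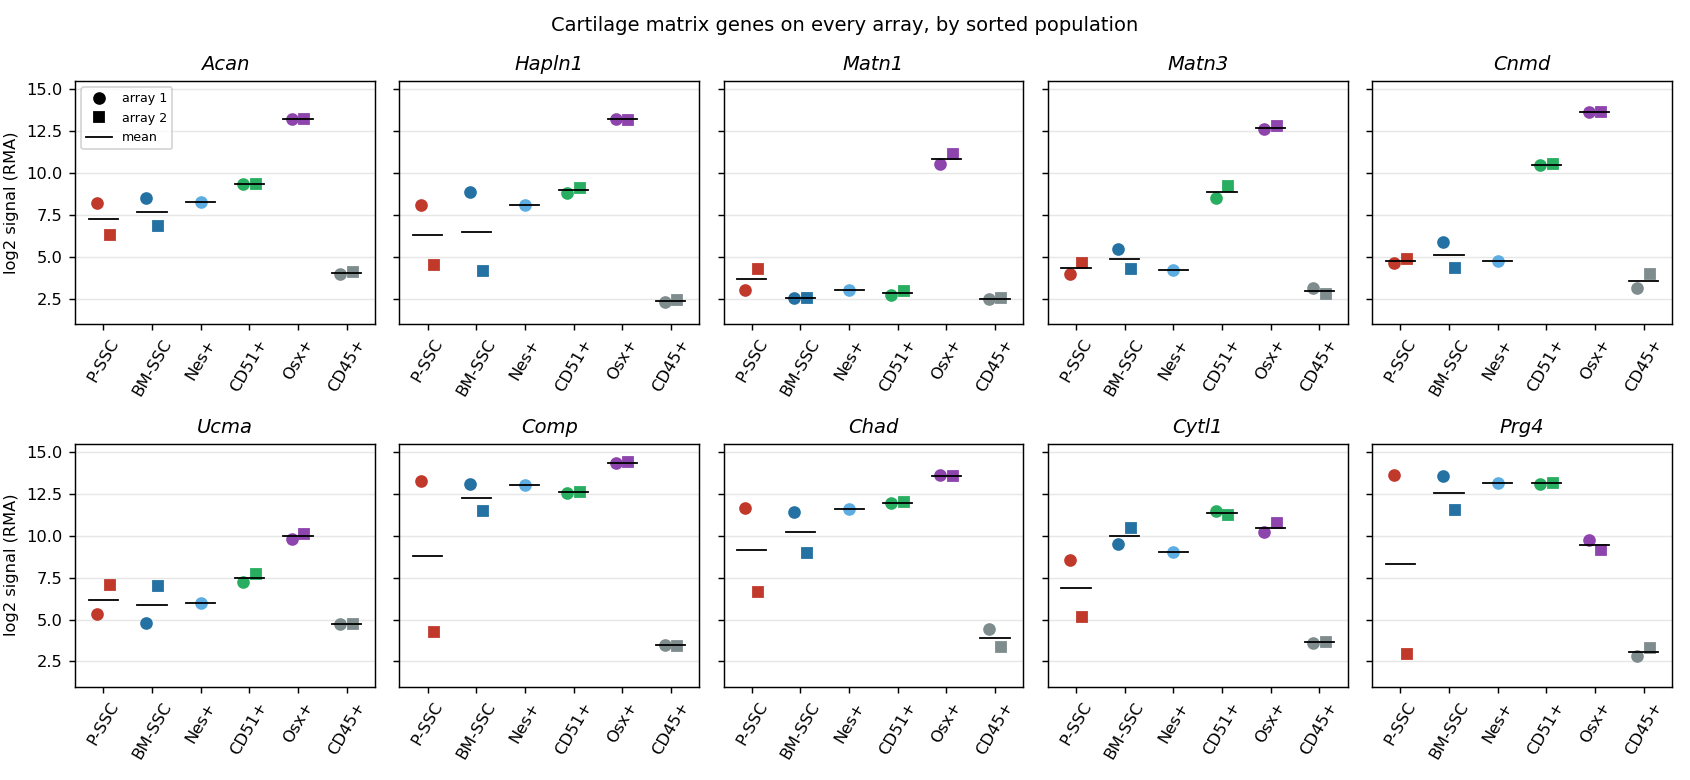
Each panel plots the RMA log2 signal of 1 gene (vertical axis) on every array, by sorted population (horizontal axis), with circles for array 1, squares for array 2 and a bar at the mean. The Osx+ arrays sit on top for 8 genes, Prg4 is lower there (9.73 and 9.18) than in CD51+ BMSCs (13.11 and 13.17), and the square of the P-SSCs falls far below the circle for Comp, Chad and Prg4.

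Aggrecan, the large chondroitin sulfate proteoglycan of cartilage, was present in every stromal population and was highest in Osx+ cells. Acan read 8.19 and 6.30 in P-SSCs, 8.51 and 6.84 in BM-SSCs, 8.30 on the Nes+ BMSC array, 9.38 and 9.33 in CD51+ BMSCs, 13.24 and 13.21 in Osx+ cells and 3.97 and 4.12 in CD45+ cells. The arrays of P-SSCs, BM-SSCs and Nes+ BMSCs overlapped, and those of CD51+, Osx+ and CD45+ cells were each separate from the rest. Against Osx+ cells the difference was -5.98 for P-SSCs (standard error 0.703, adjusted p = 0.0138, limma), or 63.1-fold lower, -5.55 for BM-SSCs (adjusted p = 0.0201) and -3.87 for CD51+ BMSCs (adjusted p = 0.0356). In the Nes+ BMSCs Acan differed from Osx+ cells by -4.92 without passing (adjusted p = 0.106). Acan was the weakest of these calls. Leaving out either CD45+ array, either CD51+ array or either Osx+ array ended it in P-SSCs (adjusted p of 0.0555 to 0.188) and in BM-SSCs (0.0804 to 0.238), where leaving out BM-SSC array 2 ended it as well (0.0777). In CD51+ BMSCs it ended when arrays were centred on their medians (0.075) and with a trend and robust variance (0.0859).

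Hapln1, the link protein that fastens aggrecan to hyaluronan, had a like order with a wider spread. It read 8.09 and 4.51 in P-SSCs, 8.87 and 4.13 in BM-SSCs, 8.10 on the Nes+ BMSC array, 8.83 and 9.12 in CD51+ BMSCs, 13.23 and 13.20 in Osx+ cells and 2.30 and 2.44 in CD45+ cells. The second arrays of both SSC populations were well below their first arrays, and every array was below the Osx+ arrays. Its differences from Osx+ cells of -6.92 for P-SSCs, -6.71 for BM-SSCs, -5.12 for Nes+ BMSCs and -4.24 for CD51+ BMSCs did not pass (adjusted p = 0.125, 0.167, 0.635 and 0.379), with an interval in CD51+ BMSCs of -7.83 to -0.65. Of the 4 probe sets of Hapln1, the other 3 gave means of 3.57 to 4.28 in P-SSCs and 4.37 to 5.19 in BM-SSCs. They gave 4.17 to 4.69 in Nes+ BMSCs and 6.69 to 7.82 in CD51+ BMSCs. In Osx+ cells they read 12.14 to 12.46, and in CD45+ cells 2.01 to 2.91. On each of these 3 the Nes+ BMSCs were below the BM-SSCs, unlike on the probe set used. All 4 probe sets were highest in Osx+ cells, with CD51+ BMSCs next.

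The matrilins, adaptor proteins that link collagen fibrils to aggrecan, separated the Osx+ from the CD51+ cells in different ways. Matn1 read 3.01 and 4.30 in P-SSCs, 2.53 and 2.57 in BM-SSCs, 3.04 on the Nes+ BMSC array, 2.74 and 2.94 in CD51+ BMSCs, 10.54 and 11.14 in Osx+ cells and 2.46 and 2.57 in CD45+ cells. Only the Osx+ arrays carried a Matn1 signal above 4.30, and CD51+ BMSCs differed from CD45+ cells by 0.33 (interval -0.75 to 1.41, adjusted p = 1). Matn1 was lower than in Osx+ cells by -7.19 for P-SSCs (standard error 0.463, adjusted p = 0.0015), -8.29 for BM-SSCs (adjusted p = 0.00122), -7.80 for Nes+ BMSCs (adjusted p = 0.00551) and -8.00 for CD51+ BMSCs (adjusted p = 0.00189).

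Matn3 was present in CD51+ BMSCs. Its signal was 3.97 and 4.66 in P-SSCs, 5.45 and 4.25 in BM-SSCs, 4.24 on the Nes+ BMSC array, 8.51 and 9.24 in CD51+ BMSCs, 12.61 and 12.81 in Osx+ cells and 3.12 and 2.79 in CD45+ cells. The CD51+ and Osx+ arrays stood clear of all others and of each other. Matn3 was 337-fold lower in P-SSCs than in Osx+ cells (-8.40, standard error 0.497, adjusted p = 0.00124), 232-fold lower for BM-SSCs (-7.86, adjusted p = 0.00136), 356-fold lower for Nes+ BMSCs (-8.48, adjusted p = 0.00551) and 14.3-fold lower for CD51+ BMSCs (-3.84, adjusted p = 0.00909). A dimmer probe set of Matn3 gave the same order at the top, with means of 9.68 in Osx+ cells and 7.20 in CD51+ BMSCs, against 1.97 to 3.07 in the other populations.

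The promoters of the matrilins are shown because these genes of 1 family had different expression in CD51+ BMSCs. Both windows run from 250 bases before to 50 after the annotated start on GRCm38.p6 (RefSeq), at chr4:130944135-130944434 on the plus strand for Matn1 and chr12:8947679-8947978 on the plus strand for Matn3, and are given 5′ to 3′. Neither window held the core letters bound by SOX factors, ACAAT on either strand (ATTGT in reverse), or the TATA box letters TATAAA on the gene's strand, so no bases are in capitals.
Matn1: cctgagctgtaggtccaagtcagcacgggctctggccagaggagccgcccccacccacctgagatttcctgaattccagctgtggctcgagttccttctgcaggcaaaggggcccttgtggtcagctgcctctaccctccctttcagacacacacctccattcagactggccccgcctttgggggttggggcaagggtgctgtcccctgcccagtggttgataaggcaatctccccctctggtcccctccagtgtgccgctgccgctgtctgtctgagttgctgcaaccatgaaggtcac
Matn3: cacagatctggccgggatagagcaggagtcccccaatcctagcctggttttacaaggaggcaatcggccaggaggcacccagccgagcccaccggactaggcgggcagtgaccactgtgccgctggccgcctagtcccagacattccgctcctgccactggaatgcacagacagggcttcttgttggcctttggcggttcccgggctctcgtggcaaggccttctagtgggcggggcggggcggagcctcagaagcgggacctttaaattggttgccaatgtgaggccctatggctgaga
RefSeq windows were at hand for 8 of the 10 genes, those other than Comp and Prg4. The SOX letters were in 1 of the 8, Hapln1, at 249 bases before the start, and in 31% of 32851 mouse promoters of the same length. Chad was the 1 of 8 with TATAAA, found in 8.32% of the promoters. These matches describe the windows and name no binding site.

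Chondromodulin, Cnmd, a membrane glycoprotein that keeps vessels out of cartilage, was the member with the largest difference between the SSCs and CD51+ BMSCs among those that passed. Its values were 4.65 and 4.87 in P-SSCs, 5.90 and 4.34 in BM-SSCs, 4.78 on the Nes+ BMSC array, 10.48 and 10.53 in CD51+ BMSCs, 13.65 and 13.63 in Osx+ cells and 3.16 and 3.96 in CD45+ cells. The P-SSC, BM-SSC and Nes+ arrays overlapped at 5.90 or below, above the CD45+ arrays and far below the CD51+ arrays. Cnmd was lower than in Osx+ cells by -8.86 for Nes+ BMSCs (adjusted p = 0.00551) and by -3.14 for CD51+ BMSCs (standard error 0.531, adjusted p = 0.0267), beside -8.88 for P-SSCs and -8.52 for BM-SSCs (adjusted p = 0.00124 and 0.00136). Its relative tenomodulin (Tnmd), a tendon protein, did not share this order and read 9.17 and 6.44 in P-SSCs, 7.70 and 5.72 in BM-SSCs, 7.84 on the Nes+ BMSC array, 8.50 and 8.44 in CD51+ BMSCs and 7.30 and 7.28 in Osx+ cells.

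Ucma, a secreted protein of immature chondrocytes with carboxylated glutamates, was highest in Osx+ cells and was the only one of these genes higher on array 2 of both SSC populations by over 1 unit. It read 5.35 and 7.05 in P-SSCs, 4.77 and 7.01 in BM-SSCs, 6.01 on the Nes+ BMSC array, 7.24 and 7.73 in CD51+ BMSCs, 9.83 and 10.11 in Osx+ cells and 4.74 and 4.74 in CD45+ cells. On this probe set array 1 of both SSC populations was close to CD45+ cells, and array 2 was close to CD51+ BMSCs. A dimmer probe set of Ucma was also highest in Osx+ cells, with a mean of 10.28, and next in CD51+ BMSCs, at 7.49. Its means were 4.06 in P-SSCs, 3.37 in BM-SSCs, 4.63 in Nes+ BMSCs and 2.52 in CD45+ cells. These lay farther below CD51+ BMSCs than on the brighter probe set, whose differences follow. The differences from Osx+ cells were -3.77 for P-SSCs, -4.08 for BM-SSCs, -3.96 for Nes+ BMSCs and -2.49 for CD51+ BMSCs, without passing (adjusted p = 0.101, 0.0952, 0.287 and 0.254).

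COMP and chondroadherin were expressed broadly outside the blood cells. Comp, which joins and spaces collagen fibrils, read 13.30 and 4.24 in P-SSCs, 13.11 and 11.46 in BM-SSCs, 13.05 on the Nes+ BMSC array, 12.58 and 12.64 in CD51+ BMSCs, 14.36 and 14.38 in Osx+ cells and 3.49 and 3.43 in CD45+ cells. Apart from P-SSC array 2, which was close to the blood cells, every stromal array was at 11.46 or above, and the Osx+ arrays were the highest. The difference from Osx+ cells was -5.60 for P-SSCs (adjusted p = 0.276), -2.09 for BM-SSCs (0.706), -1.32 for Nes+ BMSCs (0.968) and -1.76 for CD51+ BMSCs with an interval of -7.27 to 3.75 (adjusted p = 1).

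Chad, a leucine-rich repeat protein that binds collagen and cell surface integrin, was measured at 11.66 and 6.65 in P-SSCs, 11.45 and 8.99 in BM-SSCs, 11.58 on the Nes+ BMSC array, 11.94 and 12.02 in CD51+ BMSCs, 13.63 and 13.56 in Osx+ cells and 4.43 and 3.39 in CD45+ cells. Array 1 of the SSCs, the Nes+ array and the CD51+ arrays lay within 11.45 to 12.02. The differences from Osx+ cells were -4.44 for P-SSCs, -3.38 for BM-SSCs, -2.01 for Nes+ BMSCs and -1.61 for CD51+ BMSCs, and none passed (adjusted p = 0.245, 0.548, 0.902 and 1). The related gene Chadl, which encodes a chondroadherin-like cartilage protein, was unlike Chad in passing against Osx+ cells in all 4 populations, by -3.89 for P-SSCs, -4.29 for BM-SSCs, -4.04 for Nes+ BMSCs and -3.73 for CD51+ BMSCs (adjusted p = 0.00534, 0.00388, 0.017 and 0.00339). The Chad promoter is given as the 1 with the letters TATAAA, in capitals, 28 bases before the start, at chr11:94564797-94565096 on the plus strand of GRCm38.p6 (RefSeq).
Chad: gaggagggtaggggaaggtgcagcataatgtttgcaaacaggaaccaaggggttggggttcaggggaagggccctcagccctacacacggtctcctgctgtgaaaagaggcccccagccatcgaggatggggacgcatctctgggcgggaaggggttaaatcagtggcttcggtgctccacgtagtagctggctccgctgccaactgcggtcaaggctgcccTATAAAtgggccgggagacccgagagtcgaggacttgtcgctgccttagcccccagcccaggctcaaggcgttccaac

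Lubricin was the member that read lower in Osx+ cells than on most other stromal arrays. Prg4, the boundary lubricant of joint surfaces, read 13.62 and 2.97 in P-SSCs, 13.60 and 11.55 in BM-SSCs, 13.18 on the Nes+ BMSC array, 13.11 and 13.17 in CD51+ BMSCs, 9.73 and 9.18 in Osx+ cells and 2.83 and 3.31 in CD45+ cells. Every BM-SSC, Nes+ and CD51+ array was above both Osx+ arrays, while the P-SSC arrays lay on either side of them. With all arrays in the fit these differences did not pass, at 3.12 in BM-SSCs (interval -3.37 to 9.61, adjusted p = 0.667), 3.73 in Nes+ BMSCs (adjusted p = 0.903) and 3.68 in CD51+ BMSCs (interval -2.81 to 10.17, adjusted p = 1). The P-SSC arrays differed from each other by 10.64 for Prg4, so the direction in P-SSCs rested on which array was kept. Without P-SSC array 1 Prg4 was lower than in Osx+ cells (-6.48, adjusted p = 0.00363). In that setting, where the P-SSCs are the departing array alone, all 10 genes were lower and so were 26.9% of all genes. With the departing arrays left out Prg4 was higher than in Osx+ cells by 4.16 for P-SSCs (adjusted p = 0.000102), 4.14 for BM-SSCs (0.000137), 3.73 in Nes+ BMSCs (0.000146) and 3.68 in CD51+ BMSCs (standard error 0.228, adjusted p = 2.57e-05), where 13.1%, 8.95%, 20.9% and 17.2% of all genes were higher.

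Cytl1, a small secreted protein that promotes cartilage formation, was the only member with its highest mean in CD51+ BMSCs. It read 8.55 and 5.18 in P-SSCs, 9.53 and 10.44 in BM-SSCs, 9.06 on the Nes+ BMSC array, 11.47 and 11.23 in CD51+ BMSCs, 10.21 and 10.78 in Osx+ cells and 3.60 and 3.68 in CD45+ cells. The CD51+ arrays were above the Osx+ arrays, the BM-SSC and Osx+ arrays overlapped, and the P-SSC arrays were below those of both BM-SSCs and Osx+ cells. No difference from Osx+ cells passed with all arrays, at -3.63 for P-SSCs, -0.51 for BM-SSCs, -1.44 for Nes+ BMSCs and 0.85 in CD51+ BMSCs (adjusted p = 0.169, 0.805, 0.896 and 1).

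**Figure D2:**
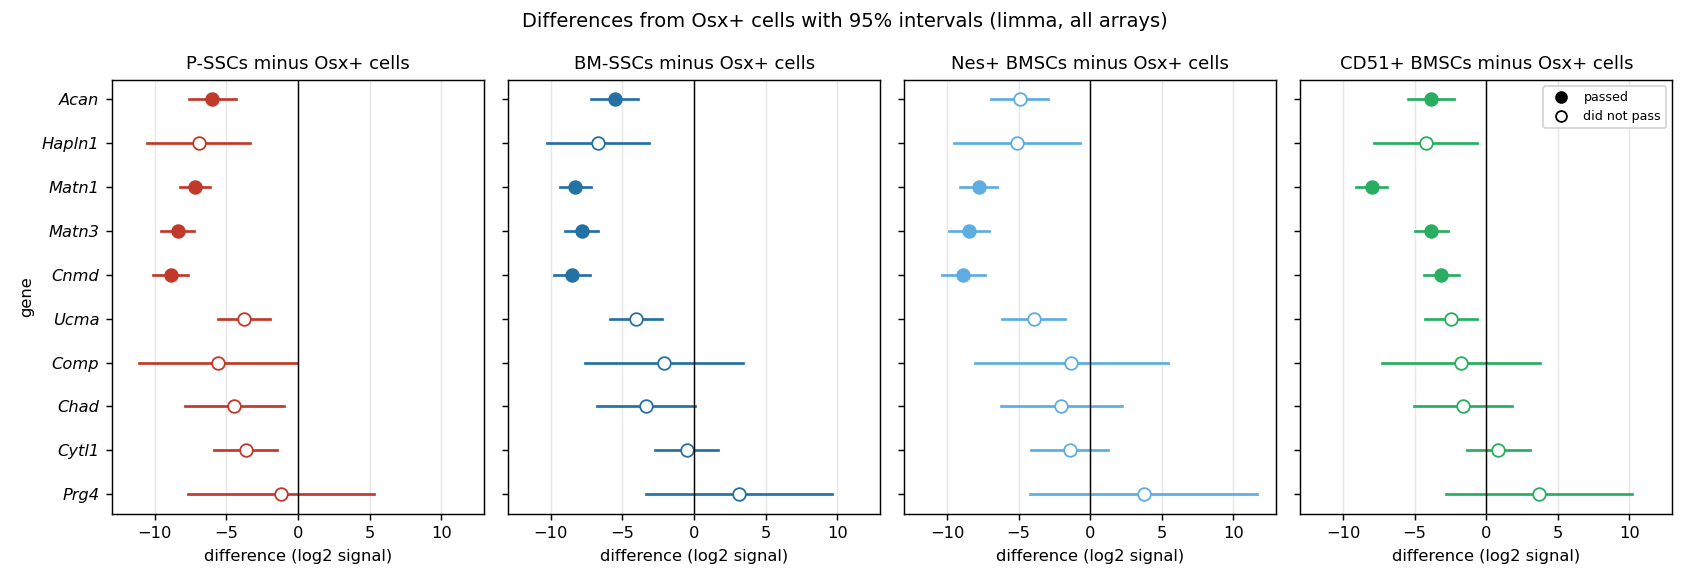
Points give the log2 difference of each gene (rows) from Osx+ cells in P-SSCs, BM-SSCs, Nes+ BMSCs and CD51+ BMSCs (panels, left to right), lines the 95% interval of limma's fit over all arrays, and filled points the differences that passed. Matn1, Matn3 and Cnmd have filled points in all 4 panels, Matn3 and Cnmd lie nearer to 0 in CD51+ BMSCs (-3.84 and -3.14), and the intervals of Comp and Prg4 are the widest.

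With the departing arrays left out all 10 genes differed from Osx+ cells in each of the 4 comparisons. In P-SSCs, BM-SSCs and Nes+ BMSCs 9 were lower and Prg4 was higher, and in CD51+ BMSCs 8 were lower while Prg4 and Cytl1 were higher. In that setting 17.7%, 9.71%, 28% and 12.9% of all genes were lower in these populations. In CD51+ BMSCs, whose own arrays were the same in both fits, Comp differed by -1.76 in both and passed only in the second (adjusted p = 5.74e-05), and Cytl1 differed by 0.85 (adjusted p = 0.0192).

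The CD51+ and Osx+ comparison also depended on single arrays of these populations. With all arrays 4 genes were lower in CD51+ BMSCs, 2 when either CD45+ array was left out (Matn1 and Matn3), 1 when CD51+ array 1 or either Osx+ array was left out (Matn1), and 0 when CD51+ array 2 was left out (adjusted p of 0.0523 for Matn1 and 0.0812 for Matn3). For Nes+ BMSCs, leaving out either Osx+ array gave 0, with adjusted p of 0.0892 or 0.0805 for Cnmd, Matn1 and Matn3. In these settings 0% to 0.467% of all genes were lower in CD51+ BMSCs, and 0% in Nes+ BMSCs. For P-SSCs and BM-SSCs, Cnmd, Matn1 and Matn3 passed against Osx+ cells whichever array was left out. With only the 2 populations compared in the fit, the calls of these 3 genes ended in P-SSCs (adjusted p of 0.26 to 0.335), in BM-SSCs (0.126 to 0.145) and in Nes+ BMSCs (0.101 each), and those of Acan in both SSC populations (0.447 and 0.283).

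Against CD45+ cells, which stand for the blood lineage, the number of members that were higher differed between the stromal populations. In P-SSCs 1 gene was higher, Acan by 3.20 (adjusted p = 0.0316), where 3.09% of all genes were higher. In BM-SSCs 3 were higher, Acan by 3.63 (adjusted p = 0.0221), Chad by 6.31 (adjusted p = 0.0416) and Cytl1 by 6.35 (adjusted p = 0.00849), beside 2.94% of all genes. The call of Chad ended with median centring (0.0655), with a trend and robust variance (0.0562) and with only the populations compared (0.0692), and the last setting ended Acan as well in P-SSCs and BM-SSCs (0.183 and 0.0893). In CD51+ BMSCs 5 were higher, beside 4.25% of all genes, namely Acan by 5.31 (adjusted p = 0.00785), Cnmd by 6.94 (0.00169), Matn3 by 5.92 (0.00232), Chad by 8.07 (0.0216) and Cytl1 by 7.71 (0.00621). In Osx+ cells 9 were higher, beside 4.91% of all genes, and Prg4 differed by 6.38 (interval -0.11 to 12.87, adjusted p = 0.273). The smallest of the 9 was Ucma at 5.23 (adjusted p = 0.00598) and the largest Comp at 10.91 (adjusted p = 0.028), which is a 1920-fold difference.

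The calls against CD45+ cells moved with single arrays. In P-SSCs the call of Acan ended when any CD45+, CD51+ or Osx+ array was left out (adjusted p of 0.0712 to 0.197), and it also ended with median centring (0.0684) and with a trend and robust variance (0.0645). There 6 genes were higher without P-SSC array 1, which leaves the departing array alone (29.2% of all genes), 5 without P-SSC array 2 (5.74%) and 2 without either BM-SSC array (6.92%). In BM-SSCs 0 passed when 1 CD45+ array was left out (0.0605% of all genes), 1 (Cytl1) when a CD51+ or Osx+ array was (0.852% or 1.07%), 2 without BM-SSC array 1 (7.21%), 5 without BM-SSC array 2 (3.06%), and 6 when 1 P-SSC array was left out (8.07%). In CD51+ BMSCs Cnmd and Matn3 were the calls that remained when CD45+ array 1 (0.143%) or 1 CD51+ array (0.104% or 0.407%) was left out, Cnmd alone remained without CD45+ array 2 (0.0824%), and 9 genes passed when 1 P-SSC array was left out (7.99%). In Osx+ cells 6 passed when CD45+ array 2 or 1 Osx+ array was left out (1.21% to 1.48%), without Comp, Chad and Ucma. Dropping both departing arrays gave 8 in P-SSCs, 8 in BM-SSCs, 9 in CD51+ BMSCs and 10 in Osx+ cells, where 24.4%, 18%, 19.1% and 22% of all genes were higher. In that setting Matn1 did not pass in P-SSCs, BM-SSCs or CD51+ BMSCs (adjusted p = 0.15, 0.964 and 0.281), and Ucma did not pass in P-SSCs or BM-SSCs (0.0669 and 0.941).

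Matn3 and Cnmd also separated the SSCs from CD51+ BMSCs. In P-SSCs Cnmd was lower by -5.75 (standard error 0.531, adjusted p = 0.0115), or 53.6-fold, and Matn3 by -4.56 (adjusted p = 0.0148), and these were the 2 of 10 genes that passed, where 0.835% of all genes were lower. In BM-SSCs the same genes passed, Cnmd at -5.38 (adjusted p = 0.0116) and Matn3 at -4.02 (adjusted p = 0.0231), beside 0.803% of all genes. Both calls ended in either SSC population when a CD51+ array or a CD45+ array was left out (adjusted p of 0.0611 to 0.321). Leaving out an Osx+ array ended Matn3 in P-SSCs (0.0548) and both genes in BM-SSCs (0.0519 and 0.0859), and leaving out BM-SSC array 2 ended Matn3 in BM-SSCs (0.0706). With only the populations compared in the fit both genes ended in P-SSCs (0.411 each) and in BM-SSCs (0.295 and 0.343). Without P-SSC array 1, which leaves the departing array alone, 7 genes were lower in P-SSCs and Matn1 was higher (1.46), where 31.2% and 27.1% of all genes were lower and higher. With the departing arrays left out 7 genes passed in P-SSCs, 6 lower (background 20.5%) and Comp higher (background 12.3%), and 5 passed in BM-SSCs, all lower (Acan, Cnmd, Matn3, Ucma and Cytl1, background 11.8%). The hyaluronan synthase Has2, which makes the polymer that aggrecan binds, was lower in the SSCs as well, at 4.40 and 5.25 in P-SSCs and 4.48 and 4.95 in BM-SSCs, against 8.45 and 8.76 in CD51+ BMSCs (differences of -3.79 and -3.90, adjusted p = 0.0227 and 0.0203).

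Between P-SSCs and BM-SSCs none of the 10 genes passed (0% of all genes did), while limma's unadjusted test passed 2 at 0.05, Cytl1 at -3.12 (0.918% of all genes lower) and Matn1 at 1.10 (1.12% higher). The smallest adjusted p was 0.98. The intervals were wide, from -10.77 to 2.21 for Prg4 and from -1.60 to 0.87 for Cnmd. On array 1 alone the SSC populations differed by -1.48 to 0.57 over the 10 genes, and none passed, where 0.478% of all genes were higher and 1.98% lower in P-SSCs. When P-SSC array 1 was left out, which sets the departing array alone against BM-SSCs, 4 genes were lower, with Prg4 at -9.60 and Comp at -8.05 (adjusted p = 0.00168 and 0.00142), and Matn1 was higher by 1.75 (0.0246), where 9.77% of all genes were lower and 7.24% higher. Between BM-SSCs and Nes+ BMSCs none of the 10 passed either (0% of all genes), with differences of -1.59 (Hapln1) to 0.93 (Cytl1) and no gene at an unadjusted p under 0.05. With BM-SSC array 2 and P-SSC array 2 left out, the comparison is of 1 array with 1, without a replicate on either side. In it Cnmd, Matn3 and Hapln1 passed as higher (background 19.6%) and Ucma as lower (background 10.9%), which compares these arrays and not the populations.

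The members were then set beside lists of genes with related roles, drawn up from general knowledge but with earlier results of these data known. As background to the list counts, 1.02% of all genes were lower than in Osx+ cells in P-SSCs and 0.781% in BM-SSCs. The shares were 0.352% in Nes+ BMSCs and 0.984% in CD51+ BMSCs, and 4.91% were higher in Osx+ cells than in CD45+ cells. Of the 8 collagen genes of cartilage, 7 were lower than in Osx+ cells in P-SSCs, 6 in BM-SSCs, 4 in Nes+ BMSCs and 5 in CD51+ BMSCs, and all 8 were higher in Osx+ cells than in CD45+ cells. Their median log2 signal was 5.17 and 5.91 on the P-SSC arrays, 7.92 and 6.36 in BM-SSCs, 7.38 on the Nes+ BMSC array, 8.33 and 8.87 in CD51+ BMSCs, 12.95 and 13.26 in Osx+ cells and 4.11 and 3.56 in CD45+ cells. The type IX chain Col9a1, whose protein coats type II collagen fibrils, read 4.82 and 6.33 in P-SSCs, 7.53 and 6.16 in BM-SSCs, 6.72 on the Nes+ BMSC array, 10.61 and 11.35 in CD51+ BMSCs, 14.30 and 14.43 in Osx+ cells and 4.15 and 3.57 in CD45+ cells. As for Matn3 and Cnmd, the CD51+ arrays lay between the Osx+ arrays and all others. Col10a1, the collagen of hypertrophic chondrocytes, read 4.55 and 5.31 in P-SSCs, 4.10 and 5.30 in BM-SSCs, 4.69 on the Nes+ BMSC array, 6.35 and 6.70 in CD51+ BMSCs and 12.25 and 12.31 in Osx+ cells. It was lower than in Osx+ cells by -7.34 for P-SSCs, -7.57 for BM-SSCs, -7.59 for Nes+ BMSCs and -5.75 for CD51+ BMSCs (adjusted p = 0.00161, 0.00136, 0.00551 and 0.00253).

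Of 13 other cartilage matrix genes, 5 were lower than in Osx+ cells in P-SSCs, 4 in BM-SSCs, 4 in Nes+ BMSCs and 3 in CD51+ BMSCs, and none was higher. The transmembrane proteoglycan Snorc differed by -7.69 for P-SSCs (adjusted p = 0.00161), -8.62 for BM-SSCs (0.00133), -8.28 for Nes+ BMSCs (0.00551) and -3.69 for CD51+ BMSCs (0.0118). Epyc, a small leucine-rich proteoglycan of growth cartilage, differed by -6.82, -6.90, -7.49 and -4.70 in the same populations (adjusted p = 0.00124, 0.00122, 0.00551 and 0.00189). Other genes of the list had the broad pattern of Comp or that of Prg4. Fibromodulin, Fmod, read 13.98 and 4.27 in P-SSCs, 14.07 and 12.43 in BM-SSCs, 14.05 on the Nes+ BMSC array, 12.55 and 12.75 in CD51+ BMSCs and 14.42 and 14.23 in Osx+ cells. Cilp, a protein of articular cartilage, read 11.99 and 3.65 in P-SSCs, 11.94 and 10.28 in BM-SSCs, 11.19 on the Nes+ BMSC array, 11.64 and 11.82 in CD51+ BMSCs and 4.45 and 7.28 in Osx+ cells, without passing.

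**Figure D3:**
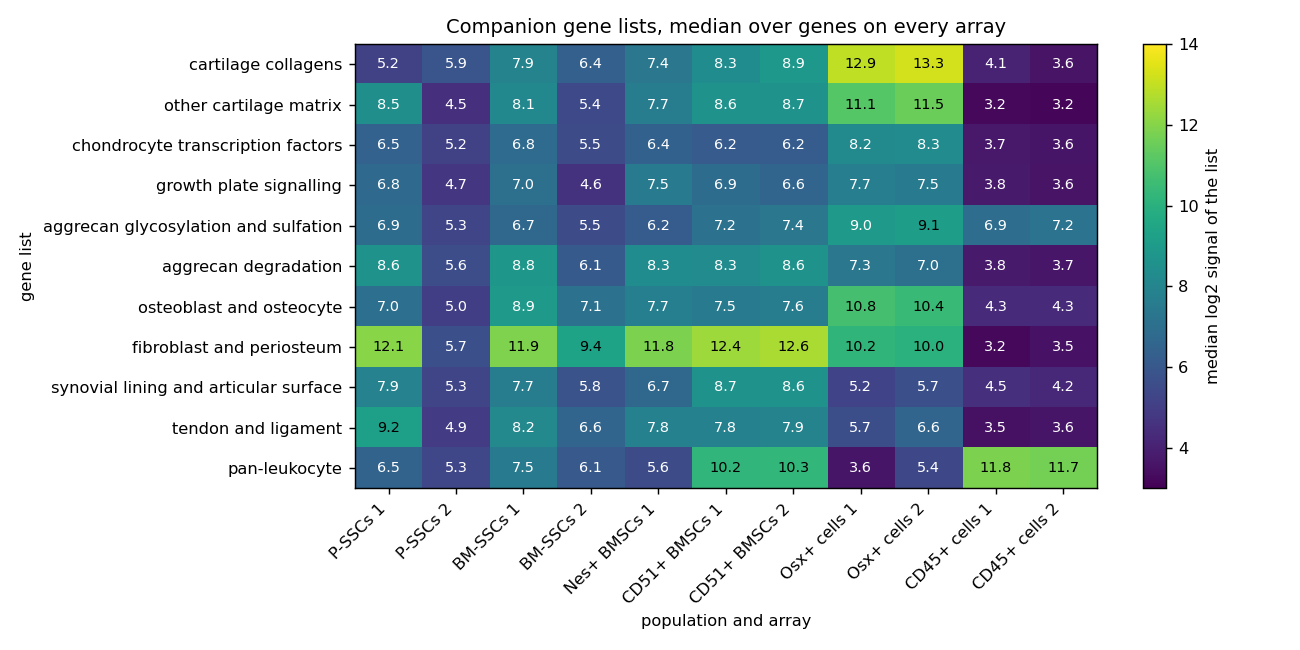
Each cell gives the median log2 signal of a gene list (rows) on 1 array (columns). The cartilage collagens have their highest medians on the Osx+ arrays (12.95 and 13.26), and the pan-leukocyte genes on the CD45+ arrays (11.81 and 11.72), with the CD51+ arrays next (10.23 and 10.27).

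Regulators and modifying enzymes of cartilage came next. Of 10 transcription factors of chondrocytes, 1 was lower than in Osx+ cells in each of the 4 populations, Foxa3, which drives chondrocyte hypertrophy together with Foxa2, by -5.03 for P-SSCs, -6.01 for BM-SSCs, -5.77 for Nes+ BMSCs and -4.51 for CD51+ BMSCs (adjusted p = 0.00379, 0.00194, 0.00983 and 0.00324). Sox9, the master factor of chondrocytes, read 7.93 and 3.70 in P-SSCs, 8.36 and 5.31 in BM-SSCs, 8.29 on the Nes+ BMSC array, 7.32 and 7.54 in CD51+ BMSCs, 10.66 and 10.50 in Osx+ cells and 3.62 and 3.71 in CD45+ cells, without passing against Osx+ cells. Of 7 growth plate signalling genes, 1 was lower in P-SSCs, 1 in BM-SSCs, 0 in Nes+ BMSCs (3 at limma's unadjusted p under 0.05, as were 7.55% of all genes) and 3 in CD51+ BMSCs. Among these the fibroblast growth factor receptor Fgfr3, a brake on growth plate chondrocytes, differed by -5.25 for P-SSCs, -4.69 for BM-SSCs and, in CD51+ BMSCs, -4.37 (adjusted p = 0.0158, 0.0271 and 0.0147). Ihh, the hedgehog ligand of prehypertrophic chondrocytes, differed by -3.82 for CD51+ BMSCs (adjusted p = 0.0292). The median difference of the growth plate list was -2.38 for P-SSCs, -3.15 for BM-SSCs, -1.81 for Nes+ BMSCs and -2.36 for CD51+ BMSCs.

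Of 17 genes that build and sulfate the glycosaminoglycan chains of aggrecan, 3 were lower than in Osx+ cells in P-SSCs, 3 in BM-SSCs, 1 in Nes+ BMSCs and 2 in CD51+ BMSCs, where 1 was higher. The sulfotransferase Chst11, which sulfates chondroitin, differed by -4.35 for P-SSCs, -4.35 for BM-SSCs and, in CD51+ BMSCs, -3.47 (adjusted p = 0.0389, 0.045 and 0.0492), and the enzyme Chsy3, which extends the chain, by -3.60, -3.51 and -3.50 in the same order (adjusted p = 0.0098, 0.0124 and 0.00548). The gene that was higher in CD51+ BMSCs was Chst7, another sulfotransferase, by 2.07 (adjusted p = 0.0158). Over the 17 genes the median difference was -3.51 for P-SSCs, -1.99 for BM-SSCs, -1.96 for Nes+ BMSCs and -1.05 for CD51+ BMSCs. Of 10 genes that degrade aggrecan or restrain its degradation, none passed limma's test against Osx+ cells with all arrays, with 1 in P-SSCs, 0 in BM-SSCs, 0 in Nes+ BMSCs and 2 in CD51+ BMSCs at an unadjusted p under 0.05, beside 20.4%, 11.1%, 7.55% and 10.9% of all genes. In limma's fit with the departing arrays left out 4 of them were higher in P-SSCs, 5 in BM-SSCs, 3 in Nes+ BMSCs and 5 in CD51+ BMSCs, beside 13.1%, 8.95%, 20.9% and 17.2% of all genes, and 2 were lower in CD51+ BMSCs, beside 12.9%.

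Of 16 relatives from the protein families of the members, 1 was lower than in Osx+ cells in each population (Chadl), and 1 was higher in CD51+ BMSCs, the adhesion protein vitronectin, Vtn, by 4.60 (adjusted p = 0.00539). Thbs4, a thrombospondin of tendon and a relative of Comp, read 12.16 and 4.86 in P-SSCs, 11.41 and 7.48 in BM-SSCs, 11.30 on the Nes+ BMSC array, 11.18 and 11.46 in CD51+ BMSCs and 5.70 and 7.56 in Osx+ cells, unlike Comp. The matrilin Matn4 read 8.81 and 4.03 in P-SSCs, 8.26 and 5.43 in BM-SSCs, 8.57 on the Nes+ BMSC array, 6.74 and 6.72 in CD51+ BMSCs and 10.05 and 9.79 in Osx+ cells. Its CD51+ arrays lay below the Nes+ array, where those of Matn3 lay above it.

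Markers of other cell types moved with some of these comparisons. Osterix (Sp7) itself read 6.42 and 6.81 in P-SSCs, 8.15 and 7.11 in BM-SSCs, 7.71 on the Nes+ BMSC array, 5.05 and 5.26 in CD51+ BMSCs, 8.93 and 8.58 in Osx+ cells and 4.30 and 4.05 in CD45+ cells, highest in the cells sorted on it. Of 11 osteoblast and osteocyte genes 2 were lower than in Osx+ cells in each SSC population (Alpl and Smpd3), and CD51+ BMSCs had Alpl and Sp7 lower. With the departing arrays left out 8 of the list were lower in P-SSCs, 2 in BM-SSCs, 5 in Nes+ BMSCs and 10 in CD51+ BMSCs, beside the 17.7%, 9.71%, 28% and 12.9% of all genes given above. Their median signal was 7.0 and 5.04 in P-SSCs, 8.93 and 7.11 in BM-SSCs, 7.74 on the Nes+ BMSC array, 7.52 and 7.64 on the CD51+ arrays and 10.75 and 10.42 in Osx+ cells. Of 10 fibroblast and periosteum genes 2 were higher in CD51+ BMSCs (Pi16 and Mfap5), where their median signal was 12.38 and 12.61, against 10.19 and 10.04 in Osx+ cells. Of 8 endothelial genes Kdr was higher in P-SSCs, while CD51+ BMSCs had Tek higher. Their median signal was 6.81 and 4.72 in P-SSCs and 5.88 and 6.18 in BM-SSCs. It was 4.93 and 4.95 on the CD51+ arrays and 3.69 and 3.37 in Osx+ cells. None of 8 tendon or 8 marrow stroma genes passed against Osx+ cells, and 1 of 7 synovial genes was higher in CD51+ BMSCs. The marrow stroma median was 9.76 and 4.31 in P-SSCs, 9.0 and 7.55 in BM-SSCs and 6.55 and 7.38 in Osx+ cells. On the CD51+ arrays it was 8.44 and 8.46, and on the Nes+ BMSC array 8.55. Of 12 pan-leukocyte genes 10 were higher in CD51+ BMSCs than in Osx+ cells, and 6 were lower in P-SSCs and 3 in BM-SSCs than in CD51+ BMSCs, with a median signal of 10.23 and 10.27 on the CD51+ arrays and 3.61 and 5.40 on the Osx+ arrays. Ptprc, which encodes the CD45 antigen that the CD51+ sort was gated against, read 10.23 and 10.17 on the CD51+ arrays. Of 8 skeletal muscle genes 3 were higher in CD51+ BMSCs (median signal 7.47 and 8.42, against 5.03 and 4.81 in Osx+ cells). The members were at 2.30 to 4.74 in CD45+ cells. The part of these markers in the differences of the members from Osx+ cells was not tested, and in sorted bulk samples fewer cells of a type and less RNA per cell cannot be told apart.

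Over the 11 arrays, Pearson correlations were highest between Cnmd and Matn3 (0.992), Acan and Hapln1 (0.982) and Comp and Chad (0.967), and lowest between Prg4 and Matn1 (-0.0624). These are descriptions over arrays that share populations, 2 departing arrays and the contrast with CD45+ cells, and carry no p-value.

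**Figure D4:**
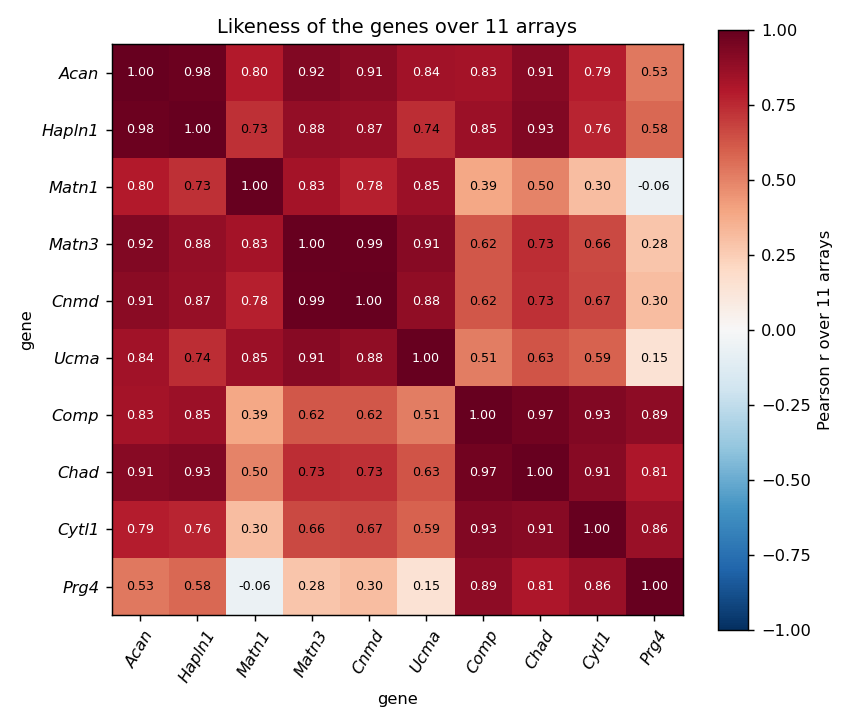
Each cell gives the Pearson correlation of log2 signal between 2 genes over the 11 arrays. Cnmd and Matn3 (0.992) and Comp and Chad (0.967) are among the closest pairs, and Prg4 has its lowest value with Matn1 (-0.0624).

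Over all 18193 genes, those most like the mean of the 10 members across the 11 arrays were Gab1 (r = 0.992), Il17d (0.99), Csgalnact1 (0.985), Klhl13 (0.984), Mfge8 (0.98), Rhobtb3 (0.98), Col2a1 (0.979), Kdelr3 (0.978), Maged2 (0.978) and Snx24 (0.977). Csgalnact1, which starts the chondroitin sulfate chain, and Col2a1, the main collagen of cartilage, belong to the lists above. Csgalnact1 read 6.90 and 5.69 in P-SSCs, 6.70 and 6.51 in BM-SSCs, 6.64 on the Nes+ BMSC array, 7.92 and 7.92 in CD51+ BMSCs, 9.65 and 9.95 in Osx+ cells and 4.10 and 4.51 in CD45+ cells (a description, since it was chosen by these values). With the departing arrays left out Gab1, Il17d and Csgalnact1 were again among the 10 closest, and Col2a1 was not.

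Single members had different nearest genes. Cnmd was closest to Hilpda (0.987), Col9a1 (0.982) and Snorc (0.978), and Matn3 to Col9a1 (0.991), Hilpda (0.989) and Sox8 (0.984). Comp was closest to Vasn (0.996), Sparc (0.995) and Fmod (0.994), and Chad to Wwtr1 (0.993), Cdkn1a (0.991) and Plagl1 (0.99). Prg4 was closest to Gpm6b (0.995), Ptx3 (0.989) and Lepr (0.985), the leptin receptor, a marker of marrow stroma. Acan was closest to Taf4b (0.993), Csgalnact1 (0.988) and Lmcd1 (0.985), Hapln1 to C1qtnf3 (0.992), Peg3 (0.988) and Hectd2 (0.986), and Matn1 to Slc38a4 (0.994), Rlbp1 (0.991) and Baiap2l1 (0.985). For Ucma these were Prkg2 (0.988), Vnn1 (0.982) and Ncmap (0.974), and for Cytl1 Phf13 (0.965), Dbndd2 (0.962) and Mgp (0.959), the matrix Gla protein that restrains mineral in cartilage.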

How the data were processed

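RNA of sorted mouse bone cells was measured on 11 Affymetrix mouse arrays of 6 populations. The authors deposited log2 values that they had made with robust multichip average (RMA) in Partek GS and R, which corrects background, normalizes across arrays and summarises the probes of a probe set. The scanner files were not analysed here. Array medians of the deposited log2 values lay between 4.43 and 4.94, and the number of arrays limits the precision. Groups followed the sample titles.

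Of 45101 probe sets, 64 control probe sets were left out and 45037 were tested, of which 34945 carry 1 gene symbol, 932 several and 9160 none in the platform annotation. A single linear model, in which each population had its own mean, was fitted to the 11 arrays with limma 3.58.1 in R 4.3.3 (5 residual and 2.65 prior degrees of freedom), in 12 comparisons, each adjusted by Benjamini-Hochberg over all tested probe sets at a threshold of 0.05. The fit was tested on simulated data with known changes and an equal spread on all arrays, which does not cover the departing arrays of these data. Named genes were the 10 members, up to 4 genes of a companion list with large differences among those passed, genes of these lists whose values are given as a contrast and were chosen after their values were seen, and the genes with the highest Pearson correlation to the members. The members and the lists were chosen with earlier results of these data known. Alternatives were other normalizations and variance settings, fewer arrays or groups, unadjusted p-values, brighter probe sets, averaged probe sets and the array number as a block. Promoter letters came from RefSeq (GRCm38.p6).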

Additional observations from a re-analysis of the deposited data

How the results depend on the processing

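No member changed direction in a comparison it had passed with all arrays, under any alternative run. Prg4, which had not passed, was lower in P-SSCs than in Osx+ cells without P-SSC array 1 (-6.48) and higher with both departing arrays left out (4.16). The count of members passed moved most with the arrays and groups in the fit, and the cause was not tested beyond what the settings themselves remove. In the order P-SSCs, BM-SSCs, Nes+ BMSCs and CD51+ BMSCs against Osx+ cells, the counts were 4, 4, 3 and 4 with all arrays. With only the groups compared they were 0, 0, 0 and 9 (0%, 0%, 0% and 23.9% of all genes passed). Against CD45+ cells the counts with all arrays were 1, 3, 5 and 9 for P-SSCs, BM-SSCs, CD51+ BMSCs and Osx+ cells. There they were 0 for P-SSCs and 9 for CD51+ BMSCs when only the groups compared were fitted (0% and 47.8% of all genes). Against CD51+ BMSCs they were 2 (P-SSCs) and 2 (BM-SSCs) with all arrays, and 0 and 0 with only the groups compared (0% of all genes in each). BM-SSCs against Nes+ BMSCs had 0 with all arrays (0% of all genes). Without the departing arrays, where each SSC population is 1 array, these counts rose, as given above beside their shares of all genes. Quantile normalization gave 2 for P-SSCs against CD45+ cells and 1 for BM-SSCs against CD51+ BMSCs (7.81% and 0.313% of all genes passed). It ended the calls of Cnmd in CD51+ BMSCs against Osx+ cells (adjusted p = 0.0587) and of Comp and Ucma in Osx+ against CD45+ cells (0.0737 and 0.0956). Median centring gave 0 for P-SSCs against CD45+ cells (13.7% of all genes). It ended Acan in CD51+ BMSCs against Osx+ cells (0.075) and Chad in BM-SSCs against CD45+ cells (0.0655). A trend with robust variance gave 2 for CD51+ BMSCs against Osx+ cells and 0 for P-SSCs against CD45+ cells (3.12% and 10.7% of all genes). This setting ended the same call of Chad (0.0562). Averaging the probe sets of a gene gave 2 for P-SSCs and 7 for CD51+ BMSCs against CD45+ cells (17.5% and 10.9% of all genes passed). It also gave 6 each for P-SSCs, BM-SSCs and CD51+ BMSCs against Osx+ cells (1.21%, 1.13% and 4.28%). This setting also cut the rows tested from 45037 probe sets to 18193 genes. Of the members, only Matn3, Hapln1 and Ucma have more than 1 probe set. What raised the counts was not tested. At an unadjusted p under 0.05 the counts were 9 for P-SSCs and 6 for Nes+ BMSCs against Osx+ cells (20.4% and 7.55% of all genes passed), 6, 8 and 9 for P-SSCs, BM-SSCs and CD51+ BMSCs against CD45+ cells (38.9%, 29.1% and 19.6%), 4 for P-SSCs against CD51+ BMSCs (23.7%) and 2 for P-SSCs against BM-SSCs (2.04%).

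Leaving out 1 array at a time gave 3 to 10 for P-SSCs, 3 to 5 for BM-SSCs, 0 to 4 for Nes+ BMSCs and 0 to 5 for CD51+ BMSCs against Osx+ cells, while the share of all genes that passed ran from 0.066% to 52%, 0.0715% to 5.71%, 0% to 0.813% and 0% to 5.77%. The ranges were 0 to 6 for P-SSCs, 0 to 6 for BM-SSCs, 1 to 9 for CD51+ BMSCs and 6 to 10 for Osx+ cells against CD45+ cells (1.43% to 61.5%, 1.52% to 24.3%, 0.176% to 14.5% and 3.83% to 19.4% of all genes), and 0 to 8 for P-SSCs and 0 to 2 for BM-SSCs against CD51+ BMSCs (0% to 58.4% and 0% to 8.86%). The last ranges were 0 to 5 for P-SSCs against BM-SSCs (0% to 17%) and 0 for BM-SSCs against Nes+ BMSCs (0%).

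The array number as a replicate block gave 2 for P-SSCs against CD45+ cells (12.6% of all genes passed). Deviations of same-numbered arrays from their population means correlated at 0.784 between P-SSCs and BM-SSCs, so the arrays of these populations deviated alike. In all other pairs the correlation was -0.267 to 0.0115, so the numbers were not taken to pair the samples across the series. A single block over all populations cannot remove a deviation confined to the SSC arrays. Dim signal limits Matn1, which fell out of the set when only the brighter probe sets were tested.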
